A study of Bos taurus with 11 samples.

Results

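Complexes II, III, IV and V of the mitochondrial respiratory chain are built in large part from proteins encoded in the nucleus, and 38 such genes were followed here in blood mononuclear cells of high-altitude and low-altitude cattle. Members were taken by gene name: every probe annotated with one of the 38 names was used, with the older names of the ATP synthase genes as the array gives them. Probes were found for 37 genes, 106 of the 43653 probes of the array, namely 4 genes of complex II, 9 of complex III, 9 of complex IV and 15 of complex V. COX6C, the remaining gene of the list, was not analysed here.

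Complex II (succinate dehydrogenase) passes electrons from succinate to ubiquinone. Complex III (the cytochrome bc1 complex) passes them on to cytochrome c, complex IV (cytochrome c oxidase) hands them to oxygen, and complex V (ATP synthase) makes ATP from the proton gradient that complexes III and IV help to build. Complexes III, IV and V also hold subunits encoded in mitochondrial DNA, so that their assembly needs products of both genomes.

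The animals were 5 Ladakhi cattle, native to the high-altitude Ladakh region, set against 6 Sahiwal cattle of the arid to semi-arid lowlands. All 11 were female, 1 array was made per animal from total RNA of peripheral blood mononuclear cells, and the labels give neither ages nor treatments. The arrays were 1-colour Agilent bovine arrays of 60-base probes, and a level below is the log2 signal minus the array's own 75th percentile over the 2579 probes that were well above background on all 11 arrays. A difference is the Ladakhi mean level minus the Sahiwal mean level, with a standard error (SE) and an adjusted p from limma over 17868 probes. Levels of different probes are not comparable with each other, because each probe binds with its own strength. In such bulk samples, fewer cells of a type and less RNA per cell cannot be told apart.

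The Ladakhi arrays were dimmer: 9.69% to 15.1% of spots were well above background there, against 40.0% to 47.0% on the Sahiwal arrays. The lowest level still above background averaged -4.69 on the 5 Ladakhi arrays and -8.51 on the 6 Sahiwal arrays. Each of the 4 slides held a single breed, and the breeds also differed in scanner and in the version of the extraction software, so in every result below the breed cannot be told apart from the platform. A gene is called measured where 4 or more Ladakhi arrays and 4 or more Sahiwal arrays had its probe well above background. A gene with several probes is represented by the brightest of those with a value on every array, below called its brightest probe. This gave 31 measured members, 2 of complex II, 5 of complex III, 9 of complex IV and 15 of complex V. By their brightest probes, the other 6 members, all of complexes II and III, were above background on 1 to 3 Ladakhi arrays and on all 6 Sahiwal arrays.

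The probes are what the array measures, and several members turn on which stretch of the transcript a probe reads. The sequences shown here are probes with a reading frame open over the 60 bases, a stop being allowed as the last codon, as 78 of the 106 member probes have, and belong to members whose probes overlap or differ in their result. For ATP5L (subunit g of the ATP synthase membrane part), the probes at chr15:27528042-27528101 and chr15:27528074-27528133, both on the plus strand of HGSC Btau_3.1, overlap by 28 bases, marked in capitals. Counted from the first overlapping base at the 5′ end, they differ by A19G.
ATP5L, upstream probe: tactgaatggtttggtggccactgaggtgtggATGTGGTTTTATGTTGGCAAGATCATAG
ATP5L, downstream probe: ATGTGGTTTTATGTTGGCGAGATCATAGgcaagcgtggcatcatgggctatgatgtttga
The probe nearest the 5′ end of COX7A2 covers parts of chr9:14626619-14628575 on the minus strand, and that of ATP5A1 lies at chr24:47459175-47459234 on the minus strand.
COX7A2, 5′-most probe: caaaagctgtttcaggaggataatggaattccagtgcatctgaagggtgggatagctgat
ATP5A1, 5′-most probe: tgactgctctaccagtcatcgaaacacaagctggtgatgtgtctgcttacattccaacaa

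Members of complexes II to V differed between the breeds in both directions. Of the 31 measured members, 7 were higher in Ladakhi (22.6%) and 6 lower (19.4%), beside 17.6% higher and 14.4% lower among all 2518 measured genes with a symbol. The shares called in either direction were 41.9% of the measured members and 31.9% of all measured genes. The median difference was 0.17 over the measured members and -0.0043 over all measured genes. The members' median was -0.044 with normexp background correction, relative to the shift of all probes, and -0.22 by the mean of a gene's probes. By complex, 1 of 2 measured genes of complex II was lower. In complex III 1 of 5 was higher and 1 lower, in complex IV 2 of 9 were higher and 2 lower, and in complex V 4 of 15 were higher and 2 lower. The medians of the complexes were -1.16, -0.72, 0.35 and 0.18 for II, III, IV and V. Under normexp the counts were 10 higher and 7 lower without allowance for a shift of all probes, and 8 higher and 9 lower relative to it. After quantile normalization without allowance for a shift of all probes 11 members were higher and 4 lower, and after cyclic loess 12 were higher and 2 lower. Normexp moved the median over all measured probes to 0.25, against -0.036, and quantile normalization and cyclic loess to 0.17 and 0.41. Relative to the shifted median the counts under quantile normalization and cyclic loess were 8 higher and 6 lower, and 7 higher and 6 lower.

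**Figure D1:**
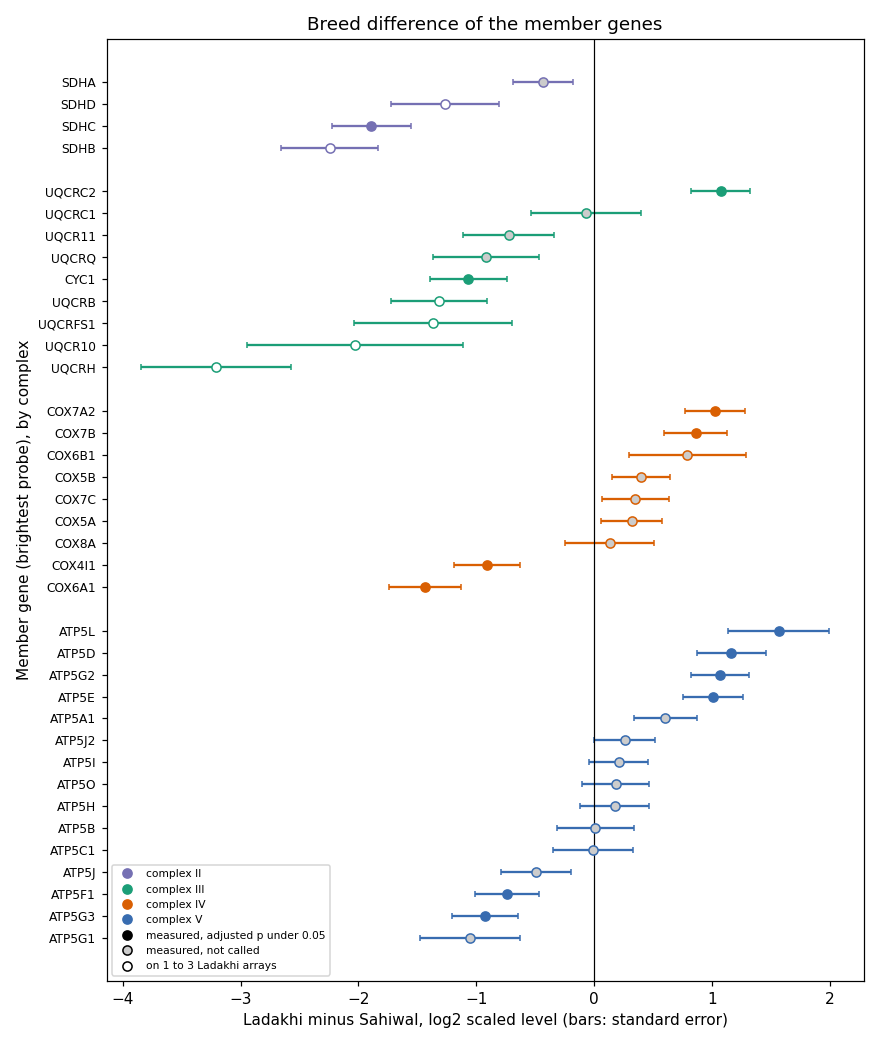
Difference of each member by its brightest probe (x axis, Ladakhi minus Sahiwal, log2; bars are standard errors), grouped by complex down the page. Filled points are the 13 measured members past an adjusted p of 0.05, grey points measured members that were not, and open points members above background on 1 to 3 Ladakhi arrays; complex II lies left of 0 throughout, while complexes IV and V spread to both sides, from -1.43 for COX6A1 to 1.57 for ATP5L.

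In complex II the catalytic and the anchoring part were measured by 1 gene each, and the anchor gene was lower. SDHC, a membrane anchor that holds the ubiquinone site, had levels of -3.11, -3.46, -2.43, -1.96 and -1.98 in the 5 Ladakhi animals, against a lowest, median and highest level of -1.35, -0.70 and -0.25 in the 6 Sahiwal animals (chr3:9036417-9036476). No Ladakhi animal reached the lowest Sahiwal animal, and SDHC was 3.70-fold lower in Ladakhi (difference -1.89, SE 0.33, adjusted p = 0.000831). SDHA, the flavoprotein that oxidises succinate, had levels of 0.35, 0.037, 0.18, 0.79 and 0.61 in Ladakhi, against 0.48, 0.78 and 1.26 as lowest, median and highest in Sahiwal. The breeds overlapped, and the difference of -0.43 (SE 0.26, adjusted p = 0.188) left a range of 2 SE from -0.95 to 0.080.

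SDHB, the iron-sulfur subunit, and SDHD, the other anchor, had only partly detected probes. Such probes passed the filter through Sahiwal alone, where they were brighter, so their differences are given without p-values. The SDHB probe (chr2:140233139-140233198) was above background on 1 of 5 Ladakhi arrays and on all 6 Sahiwal arrays. After raising each dim signal to the detection limit of its array, SDHB averaged -4.11 in Ladakhi and -2.55 in Sahiwal, a difference of -1.56 (SE 0.37). SDHD, above background on 3 Ladakhi arrays, differed by -1.03 (SE 0.40) with raised signals.

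In complex III a core protein was higher in Ladakhi and the cytochrome was lower. UQCRC2, a core protein of the matrix arm, had levels of -1.47, -0.98, -1.02, -0.72 and -1.18 in Ladakhi, against -2.39, -2.21 and -1.76 as lowest, median and highest in Sahiwal (chr25:20791070-20791129). Every Ladakhi animal lay above every Sahiwal animal, and the gene was 2.11-fold higher (difference 1.07, SE 0.25, adjusted p = 0.00404). CYC1, the haem-bearing cytochrome c1 that reduces cytochrome c, had levels of 0.32, -0.042, -1.07, -1.04 and 0.48 in Ladakhi, against 0.54, 0.78 and 1.08 in Sahiwal (chr14:572202-572258). The Ladakhi animals were spread widely below the Sahiwal range, and CYC1 was 2.09-fold lower (difference -1.07, SE 0.33, adjusted p = 0.0191). Without Ladakhi 2 and Ladakhi 4 together, a setting chosen after the data were seen, CYC1 was not past the threshold (difference -0.89, adjusted p = 0.0840).

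UQCRC1, the partner core protein, had the smallest difference of the complex. Its levels were 0.21, 0.23, 0.13, -2.65 and -0.89 in Ladakhi, against -0.94, -0.56 and -0.10 as lowest, median and highest in Sahiwal (chr22:52486619-52486678). Ladakhi 1, 2 and 3 lay above the whole Sahiwal range and Ladakhi 4 far below it, and the difference of -0.068 (SE 0.47, adjusted p = 0.919) became 0.45 (adjusted p = 0.275) without Ladakhi 4. The small subunits UQCRQ and UQCR11 averaged -2.89 ± 1.22 and -2.22 ± 0.97 in Ladakhi (SD, n = 5) and -1.98 ± 0.18 and -1.50 ± 0.21 in Sahiwal (SD, n = 6), and neither was called (limma adjusted p = 0.116 and 0.144). Without Ladakhi 2 their differences were -0.39 and -0.32 in place of -0.92 and -0.72.

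The 4 other members of complex III were above background on 2 or 3 Ladakhi arrays and had negative differences by their brightest probes. UQCRH, the hinge protein that docks cytochrome c, had levels of -3.76, -3.53, -0.46, -3.35 and 0.065 in Ladakhi, against 0.59, 0.99 and 1.36 as lowest, median and highest in Sahiwal (chr3:106693314-106693373). Ladakhi 3 and 5 were close below the Sahiwal range and the other Ladakhi animals far below it. With raised signals UQCRH was 8.73-fold lower (difference -3.13, SE 0.59). UQCRB, which lies near the ubiquinone site, differed by -1.06 (SE 0.37) with raised signals. UQCRFS1, the Rieske iron-sulfur protein, and UQCR10, a small subunit, differed by -1.22 (SE 0.56) and -1.30 (SE 0.64) with raised signals. UQCR10 levels in Ladakhi were -5.51, -0.59, -6.46, -3.17 and -0.38, so that a pair of animals lay above the Sahiwal maximum of -0.89 and the others far below it. Its second probe, upstream of the first on the array's map, was above background on every array and higher in Ladakhi (difference 1.58, adjusted p = 0.000709). By these probes the 6 members on 1 to 3 Ladakhi arrays passed the filter through Sahiwal, the breed where they were brighter. Lower levels in Ladakhi were thus favoured in advance, and no count of calls is given for them.

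In complex IV, whose catalytic core is encoded in mitochondrial DNA, the nuclear subunits split. COX7A2, the non-muscle isoform of subunit VIIa, had levels of -0.034, -0.53, -0.76, -0.56 and -0.0023 in Ladakhi, against -1.72, -1.38 and -1.09 as lowest, median and highest in Sahiwal (chr9:14624803-14624862). COX7B, a small membrane subunit, had levels of -0.59, -0.81, -0.43, 0.25 and -0.69 in Ladakhi, against -1.70, -1.32 and -0.99 in Sahiwal (chr17:61163736-61163795). By these brightest probes every Ladakhi animal was above every Sahiwal animal in both genes. COX7A2 was 2.04-fold higher (difference 1.03, SE 0.25, adjusted p = 0.00581) and COX7B 1.82-fold higher (difference 0.86, SE 0.27, adjusted p = 0.0193). Without Ladakhi 2 and Ladakhi 4, COX7B was not past the threshold (difference 0.75, adjusted p = 0.0565). A second COX7B probe, which shares 53 bases with the first, was above background on 3 Ladakhi arrays and gave a difference of 0.052. On it Ladakhi 1 and 2 were at -4.22 and -4.24, below the lowest Sahiwal level of -1.93.

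COX6A1, the non-muscle isoform of subunit VIa, and COX4I1, the ubiquitous isoform of the regulatory subunit IV, were lower in Ladakhi. COX6A1 levels were -2.16, -1.25, -2.25, -2.14 and -2.12 in Ladakhi, against -1.26, -0.52 and 0.013 as lowest, median and highest in Sahiwal (chr17:66018893-66018952). Ladakhi 2 alone touched the Sahiwal range, and COX6A1 was 2.70-fold lower (difference -1.43, SE 0.30, adjusted p = 0.00236). COX4I1 levels were 0.95, 0.54, 1.30, 1.12 and 1.72 in Ladakhi, against 1.76, 1.99 and 2.57 in Sahiwal (chr18:10983911-10983969). The breeds did not overlap, and COX4I1 was 1.88-fold lower (difference -0.91, SE 0.28, adjusted p = 0.0181). The COX4I1 probe was saturated on 1 Sahiwal array, whose spot was kept at its value, so this fold is not exact. By the next brightest unsaturated probe the difference was -1.90 and was not called (adjusted p = 0.173), nor was the brightest probe without Ladakhi 2 and Ladakhi 4 (difference -0.71, adjusted p = 0.0927).

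COX8A, the ubiquitous isoform of subunit VIII, had the smallest difference in complex IV. Its levels were -1.06, 1.22, 1.01, 0.52 and 0.75 in Ladakhi, against 0.059, 0.34 and 0.93 as lowest, median and highest in Sahiwal (chr29:44086962-44087020), and its difference of 0.13 (SE 0.38, adjusted p = 0.798) had a range of 2 SE from -0.62 to 0.89. COX6B1, the subunit that faces cytochrome c, had 0.88, -2.10, 0.86, 1.09 and 1.07 in Ladakhi, against -0.58, -0.50 and -0.19 in Sahiwal. All Ladakhi animals except Ladakhi 2 were above the Sahiwal range. By this brightest probe COX6B1 was not called over all arrays (difference 0.79, SE 0.49, adjusted p = 0.212). It was called higher without Ladakhi 2 (difference 1.41, adjusted p = 0.00130). Another measured COX6B1 probe was called lower over all arrays (difference -2.33, adjusted p = 0.0276), and a further one gave -0.39. COX5A, COX5B and COX7C, the other structural subunits, had differences of 0.32, 0.40 and 0.35, and none of the 3 was called.

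Complex V held the member with the largest positive difference, and the calls fell on different structural parts. Of the central stalk, which turns inside the catalytic head, the delta and epsilon subunits were higher in Ladakhi. ATP5D (delta) had levels of -1.72, -2.79, -1.95, -2.06 and -2.70 in Ladakhi, against -3.95, -3.30 and -3.10 as lowest, median and highest in Sahiwal (chr7:42709734-42709793). ATP5E (epsilon) had levels of 1.58, 1.34, 1.41, 1.06 and 0.92 in Ladakhi, against -0.060, 0.24 and 0.65 in Sahiwal (chr13:58077661-58077720). The breeds did not overlap in either gene, with ATP5D 2.24-fold higher (difference 1.16, SE 0.29, adjusted p = 0.00652) and ATP5E 2.01-fold higher (difference 1.01, SE 0.25, adjusted p = 0.00650). ATP5C1, the gamma subunit of the same stalk, had the smallest difference of the complex by its brightest probe. Its levels were -0.71, 0.50, -0.54, -0.85 and 0.92 in Ladakhi, against -0.38, -0.020 and 0.021 in Sahiwal, on either side of the Sahiwal range (difference -0.011, SE 0.34, adjusted p = 0.983, range of 2 SE from -0.69 to 0.67). Another measured ATP5C1 probe was called lower without overlap (difference -1.64, adjusted p = 0.00283), and a further one gave 0.095. For the catalytic head, the brightest probe of ATP5A1 (alpha) gave a difference of 0.60 (SE 0.27, adjusted p = 0.0847). That of ATP5B (beta) gave 0.011 (SE 0.33, adjusted p = 0.982), and neither was called. The other measured ATP5A1 probes all had negative differences, from -1.78 to -0.19. Another measured ATP5B probe was called higher (difference 0.99, adjusted p = 0.0149), and a further one gave -1.02 and was not called.

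The membrane ring, through which protons pass, is made of 1 protein that cattle encode by 3 genes. By their brightest probes these genes differed in direction. ATP5G2 had levels of 1.36, 1.58, 1.91, 2.16 and 1.80 in Ladakhi, against 0.54, 0.64 and 1.04 as lowest, median and highest in Sahiwal (chr5:29327190-29327249). ATP5G3 had levels of -0.79, -0.91, -0.43, 0.051 and 0.32 in Ladakhi, against 0.42, 0.55 and 0.78 in Sahiwal (chr2:22317525-22317584). In neither gene did the breeds overlap. ATP5G2 was 2.09-fold higher (difference 1.07, SE 0.25, adjusted p = 0.00414) and ATP5G3 1.90-fold lower (difference -0.92, SE 0.28, adjusted p = 0.0171). Only the brightest ATP5G2 probe was called, and its other measured probes gave 0.13 and -0.89 (adjusted p = 0.746 and 0.398). ATP5G1 had levels of -2.05, -1.52, -1.16, -3.67 and -0.98 in Ladakhi, against -1.31, -0.76 and -0.56 in Sahiwal, and was just short of the threshold (difference -1.05, SE 0.42, adjusted p = 0.0574). In Ladakhi 4 all 3 measured ATP5G1 probes lay more than 2 below the median of the breed.

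ATP5L, of the membrane part, had levels of 2.62, 2.91, 2.76, 0.22 and 2.68 in Ladakhi, against 0.34, 0.68 and 0.89 as lowest, median and highest in Sahiwal. Ladakhi 4 lay below every Sahiwal animal and the other Ladakhi animals far above them. ATP5L was 2.96-fold higher (difference 1.57, SE 0.43, adjusted p = 0.0101), and without Ladakhi 4 the difference was 2.07 (adjusted p = 0.000169). The overlapping downstream probe shown above had levels on 2 Sahiwal arrays only, because the other spots carried an outlier mark, and its difference was 1.13 (adjusted p = 0.0677). ATP5F1, subunit b of the peripheral stalk that keeps the head from turning, had levels of -2.05, -2.05, -1.68, -1.43 and -1.04 in Ladakhi, against -1.34, -0.87 and -0.59 in Sahiwal (chr3:34422922-34422981). The breeds overlapped in Ladakhi 5, and ATP5F1 was 1.67-fold lower with the weakest call of the 13 (difference -0.74, SE 0.27, adjusted p = 0.0422). Leaving out 1 array ended that call for 8 of the 11 arrays, Ladakhi 1, 2 and 3 and Sahiwal 1, 2, 4, 5 and 6, with adjusted p between 0.0597 and 0.100. By their brightest probes the other peripheral stalk genes ATP5H, ATP5J and ATP5O and the membrane part genes ATP5I and ATP5J2 had differences from -0.49 to 0.26. None of these was called. Another measured ATP5H probe was called higher without overlap (difference 1.24, adjusted p = 0.00168), and a further one gave -0.17.

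**Figure D2:**
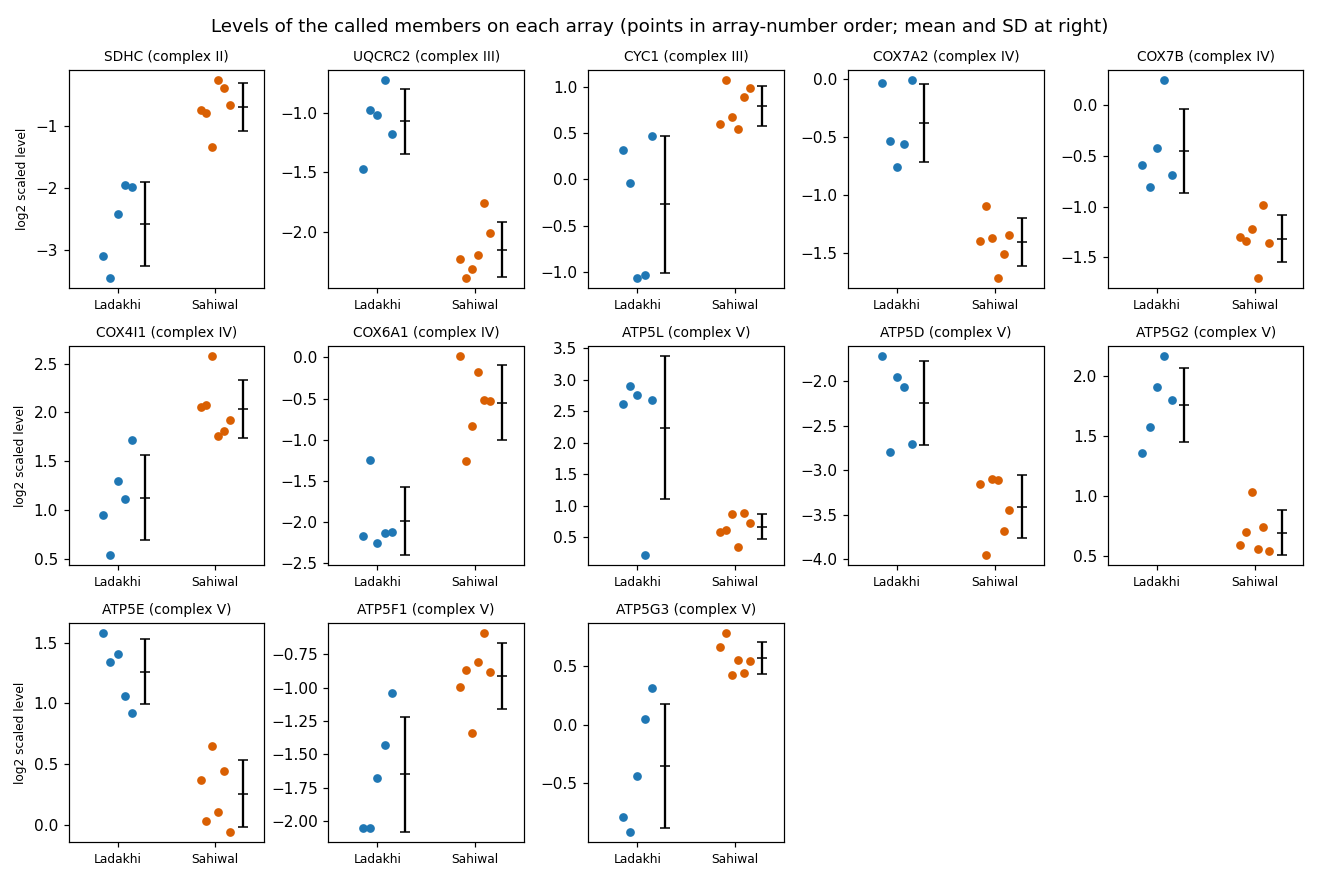
Levels of the 13 called members on each array (y axis, log2 level relative to the array's 75th percentile; scales differ between panels), Ladakhi at left and Sahiwal at right in each panel, with the mean and SD beside the points. The breeds do not overlap in 10 panels; the single Ladakhi animals that reach or cross the Sahiwal values are Ladakhi 2 in COX6A1, Ladakhi 4 in ATP5L and Ladakhi 5 in ATP5F1.

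The breeds did not overlap in 10 of the 31 measured members (32.3%), 6 of them higher and 4 lower in Ladakhi, beside 20.8% of all measured genes. These 10 were among the 13 called members. The 18 measured members that were not called ranged from -1.05 to 0.79, 11 positive and 7 negative, with SE from 0.24 to 0.49.

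Levels were more spread between the Ladakhi arrays than between the Sahiwal arrays. With 1 array per animal, variation among animals cannot be told apart from variation among arrays. The SD was larger in Ladakhi for 27 of 31 measured members (87.1%), beside 63.5% of all measured genes, and the median SD was 0.48 in Ladakhi and 0.25 in Sahiwal over the members, against 0.51 and 0.38 over all genes. In Ladakhi the SD ran from 0.20 to 1.38, and in Sahiwal from 0.14 to 0.46. Of the 66 measured member probes, 19 (28.8%) had at least 1 Ladakhi array more than 2 below the Ladakhi median, beside 21.9% of all 4034 measured probes. In Sahiwal 0 of 66 did, beside 1.31% of all measured probes. These low values numbered 1, 6, 3, 10 and 0 in Ladakhi 1 to 5, and among all measured probes 147, 175, 132, 369 and 95. They did not fall on the same genes in each animal, nor always on all probes of a gene: of the COX6B1 probes, the brightest was low in Ladakhi 2 and another in Ladakhi 4.

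**Figure D3:**
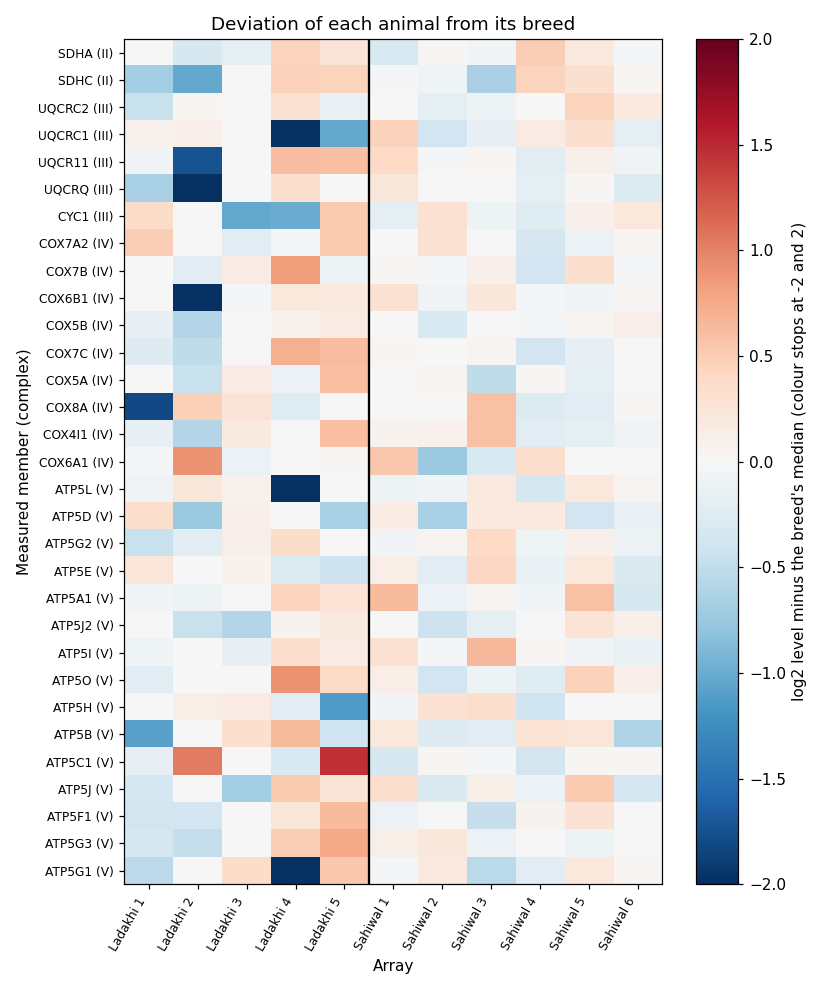
Deviation of each animal (columns, Ladakhi left of the black line, Sahiwal right) from the median of its breed for the 31 measured members (rows), in log2 units, blue below and red above. The darkest cells are single Ladakhi values, such as COX6B1 in Ladakhi 2 at a level of -2.10 and ATP5L in Ladakhi 4 at 0.22, and the Sahiwal columns stay pale.

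Where a gene had several measured probes, they often disagreed. Of 17 members with at least 2 measured probes, 10 had probes with differences of opposite sign. COX5B, the zinc-binding subunit, was called in both directions: its probes on chromosome 11 gave 0.40, 0.83, -1.12 and -1.38 from the 5′ to the 3′ end, the second of them called higher and the last pair lower (adjusted p = 0.0159, 0.0219 and 0.00713). In COX7A2 and ATP5E every measured probe was called higher, and in 0 of the 17 members was every probe called lower. Shares over all genes with several measured probes are not given here, so the disagreement is not shown to be particular to the members. The 5′-most COX7A2 probe shown above had the largest difference of that gene, 2.11 (adjusted p = 0.000237). For COX7C, the brightest probe gave 0.35, while the other probes, above background on 3 and 2 Ladakhi arrays, gave -1.75 and -2.06. For ATP5A1, the 5′-most probe shown above gave -1.78 (adjusted p = 0.000791) and the probe that represents the gene 0.60. The remaining measured ATP5A1 probes gave -0.19, -0.20 and -0.72, none of them called. The first of these was slightly brighter but lacked a value on 1 array.

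Overlapping probes also gave different results. Among 15 pairs of measured member probes that overlap by at least 20 bases with at most 2 mismatches, in 13 genes, the differences were between 0.20 and 1.95 apart, with a median of 0.79. A pair of COX8A probes is shifted by 1 base and shares 59 bases, and their differences were 0.13 (adjusted p = 0.798) and -1.41 (adjusted p = 0.0110). Their means differed by 1.89 in Ladakhi and by 0.35 in Sahiwal. The ATP5B pair shares 39 bases and gave 0.011 and -1.02.

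With the measured probes of a gene put in order along the array's map, the 3′-most probe had a lower difference than the 5′-most one in 13 of 16 members (81.2%), beside 65.0% of 597 genes with such probes. The median change from the 5′-most to the 3′-most probe was -0.89 over the members and -0.31 over all those genes. In COX6B1 the difference was 0.79 at the 5′-most probe and -2.33 at the 3′-most, 103 bases apart, and in ATP5G2 it was 1.07 and -0.89, 111 bases apart. Within single animals the log2 ratio of the 3′-most to the 5′-most probe was lower in Ladakhi without overlap in 6 of the 16 members, COX5B, COX6B1, COX7A2, ATP5C1, ATP5G2 and ATP5H, and higher without overlap in 0, beside 20.6% lower among the 597 genes. UQCRC1, CYC1 and ATP5A1 ran the other way. The letters AATAAA, the usual signal for cleavage and polyadenylation of a transcript, were searched on the probe's own strand and stood in 27 of 106 member probes (25.5%), beside 9.35% of all probes. The 24 measured member probes with these letters had a median difference of -0.61, 3 called higher and 6 lower, and the 42 without them a median of 0.053, 11 higher and 7 lower. Over all measured probes, the 839 with the letters had a median of -0.14, with 132 called higher and 151 lower. The 3195 without them had a median of -0.0048, with 590 called higher and 460 lower. This comparison of probe positions was chosen after the values were seen, and the part of labelling, RNA length or the scanner in it was not tested.

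**Figure D4:**
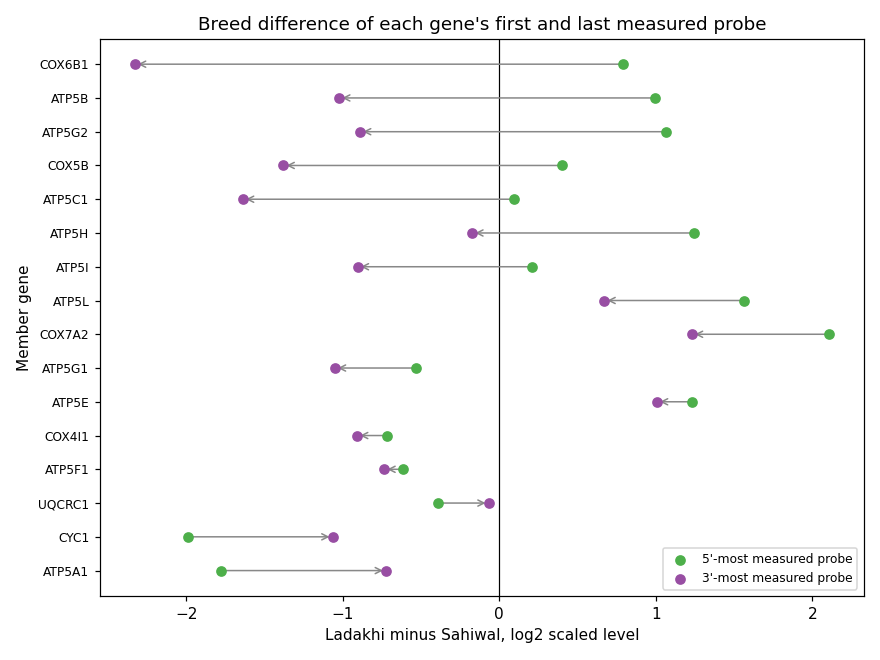
Breed difference (x axis, Ladakhi minus Sahiwal, log2) of the 5′-most (green) and the 3′-most (purple) measured probe of 16 members (rows), joined by an arrow from the 5′ to the 3′ probe. In 13 members the arrow points to lower values, as for COX6B1 from 0.79 to -2.33, and in UQCRC1, CYC1 and ATP5A1 to higher ones.

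The array's map placed some member probes apart from the rest of their gene: 1 COX5B probe on chromosome 23, 1 COX6B1 probe on chromosome 5, 1 ATP5L probe on an unplaced contig and 1 ATP5G1 probe on chromosome 19 far from the other ATP5G1 probes. Their differences were 0.38, -0.39, -0.0094 and -1.91, and signal from a near-identical copy of a gene cannot be told apart from that of the gene itself. Among the 21 member probes on 0 Ladakhi arrays, 14 were above background on at least 4 Sahiwal arrays. The fold that the Ladakhi detection limit allows exceeded 1 for 4 of these, and was largest for an ATP5C1 probe, at least 1.55-fold lower in Ladakhi, and an ATP5O probe, at least 1.49-fold lower.

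Of the mitochondrially encoded subunits of complexes III to V, 4 of 5 on the array were measured. CYTB, the cytochrome b of complex III, was higher in Ladakhi, at 2.82 ± 0.39 (SD, n = 5) against 1.65 ± 0.21 in Sahiwal (SD, n = 6; difference 1.17, limma adjusted p = 0.00332). ATP6, a proton-channel subunit of complex V, was lower, at 1.06 ± 1.61 in Ladakhi against 2.61 ± 0.35 in Sahiwal (difference -1.56, limma adjusted p = 0.0400), with 2 Sahiwal arrays saturated. COX3 was saturated on all 6 Sahiwal arrays, and COX2 on 5 of them, so no difference is given for either. Of 33 assembly factors on the array, 8 were measured with a median of -0.14, and 1 was called, OXA1L, which inserts proteins into the inner membrane (difference 0.70, adjusted p = 0.0465). A further 14 of the 33 were on 0 Ladakhi arrays.

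Of 13 tissue isoforms and further subunits, 6 were measured with a median of 0.32, and 2 were higher and 1 lower. NDUFA4, a subunit now placed with complex IV, was higher (difference 1.65, adjusted p = 0.000794), as was ATP5MJ, a small protein bound to ATP synthase (difference 1.01, adjusted p = 0.00482), and COX7A2L, which helps to join complexes III and IV, was lower (difference -0.99, adjusted p = 0.0447). The muscle isoform COX6A2 and the hypoxia-responsive isoform COX4I2 were on 0 Ladakhi and 0 Sahiwal arrays. Of 8 carrier genes 7 were measured with a median of -0.16, 0 higher and 2 lower. These were the ADP/ATP carriers SLC25A4 (difference -1.07, adjusted p = 0.0180) and SLC25A6 (difference -1.55, adjusted p = 0.00934, with 2 arrays saturated). Of 11 regulators of mitochondrial gene expression only YY1 was measured (difference 0.34, adjusted p = 0.461), and 8, TFAM and NRF1 among them, were on 0 Ladakhi arrays.

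Markers of the cell types in the samples moved with breed as well. Of 6 T cell markers 3 were measured and 2 were higher in Ladakhi, and the log2 of their summed signal lay between 1.60 and 2.82 in the Ladakhi animals and between 0.69 and 2.06 in the Sahiwal animals. CD3E and CD3G, chains of the T cell receptor complex that were detected on 2 and 3 Ladakhi arrays, had negative differences (-2.47 and -1.85, signals not raised). CD5, detected on 2 Ladakhi arrays, had a positive difference (0.65, signals not raised). CD3E, CD3G and CD5 passed the filter through Sahiwal alone, so no p is given. Of 5 B cell markers 3 were measured and 2 were higher, with summed levels of 1.32 to 1.71 in Ladakhi and 0.44 to 1.49 in Sahiwal. MS4A1, detected on 3 Ladakhi arrays, likewise had a negative difference (-1.62, signals not raised), and CD79A was not called (difference -0.13). Of 5 monocyte markers 2 were measured, and LYZ was lower (difference -1.82, adjusted p = 0.00515). Their summed levels were -0.090 to 1.30 in Ladakhi and 1.31 to 2.69 in Sahiwal, with CD14 on 1 and CD68 on 0 Ladakhi arrays. The NK cell marker GNLY was the only one of 4 measured and was higher (difference 1.68, adjusted p = 0.0178), with summed levels of -0.46 to 1.33 in Ladakhi and -2.89 to 0.16 in Sahiwal. KLRK1, on 1 Ladakhi array, had a positive difference (2.63, signals not raised), but its Sahiwal mean of -6.64 lay below the mean Ladakhi detection limit. Of the B cell markers CD79B, and of the NK cell markers KLRD1 and NCR1, were on 0 Ladakhi arrays. Of 7 neutrophil markers 0 were measured and 5 (CAMP, CSF3R, CXCR2, ELANE and MMP9) were on 0 Ladakhi arrays, CAMP on 0 Sahiwal arrays too. CXCR1 and MPO were on 1 Ladakhi array each. Summed levels were -3.60 to -1.78 in Ladakhi and -4.21 to 1.03 in Sahiwal. The Ladakhi sums thus held mostly undetected markers, and the detection limit lay higher in Ladakhi, so these ranges do not compare neutrophil markers between the breeds. Sahiwal 4 and Sahiwal 6 stood apart in these markers. CSF3R, a receptor of the granulocyte lineage, was at 0.27 and 0.69 in them and between -4.54 and -3.59 in the other Sahiwal animals. Since CSF3R was on 0 Ladakhi arrays, no test of it between the breeds is given. CXCR1 was at -1.33 and -1.81 in Sahiwal 4 and Sahiwal 6, against -10.46 to -10.01 in the other Sahiwal animals. Without Sahiwal 4 and Sahiwal 6, 6 members were higher in Ladakhi and 5 lower, and the median over the measured members was 0.062. COX7B (difference 0.76, adjusted p = 0.0778) and ATP5F1 (difference -0.70, adjusted p = 0.114) were then not past the threshold. The summed levels of 3 platelet markers were 0.90 to 1.34 in Ladakhi and -1.90 to 2.27 in Sahiwal. The part of cell makeup in the members' differences was not tested.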

How the data were processed

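RNA of blood mononuclear cells from 5 Ladakhi and 6 Sahiwal cattle was measured with 1 array per animal. Per the labels' protocols, the RNA was primed with a T7 promoter primer, amplified and given a Cy3 label. The deposited values are, per the file headers, intensity readings, namely Feature Extraction's processed signals after background subtraction, from an Agilent scanner with version 12.0.1.1 for Ladakhi and an Axon scanner with version 9.5.3.1 for Sahiwal, on 43803 spots mapped to HGSC Btau_3.1. A further table deposited by the authors holds log2 values, whose scaling is not given in the sources used here. Each of its 11 columns matched best an array of its own breed other than its namesake (lowest correlation 0.99996 after centring each probe on its median), so it served only for the breed comparison and animal numbers are those of the scanner files.

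From these, the 294 outlier-marked spots were treated as missing, replicate spots were averaged per probe, and the 75th percentile of the 2579 probes that every array detected was subtracted from each array. The 17868 probes that 4 or more arrays of one breed or the other detected were tested with limma 3.58.1 in R 4.3.3 (two-sided, breed only, Benjamini-Hochberg, threshold 0.05), and the fit was tested on simulated data. Raised signals are dim signals set to each array's lowest detected level. Precision is limited by how few arrays there are and by the dimness of the Ladakhi ones. Alternatives were other scalings, normexp background correction (offset 50), other filters, saturated probes left out, the mean of a gene's probes, the slide or the animal number as a block, array weights, a trended prior, the value table each array left out and, chosen after seeing the data, Ladakhi 2 and 4 or Sahiwal 4 and 6 left out together.

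Per-animal values are given for called members and for those with the largest and smallest difference in each complex, and of other pathway genes for up to 3 called per list. COX6B1, UQCRH, UQCR10 and ATP5G1, with values per animal too, and all probes described singly were chosen after their values were seen. The members and lists were chosen with earlier results of these data known. Probes were shown by an open reading frame, since proteins to translate against were not used here. Red cell markers are not reported here, and sequences are shown for 4 probes only.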

Additional observations from a re-analysis of the deposited data

Results flagged for a closer look

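In 6 of 62 groups of levels examined, 1 animal stood apart from the others of its breed by more than Dixon's criterion, 4 times in Ladakhi and 2 times in Sahiwal. Chance alone gives about 1 such group in 20.

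COX6B1 stood at -2.10 in Ladakhi 2, whose nearest neighbour was at 0.86. ATP5L stood at 0.22 in Ladakhi 4, with the nearest at 2.62. UQCR11 stood at -3.85 in Ladakhi 2, with the nearest at -2.16. COX6A1 stood at -1.25 in Ladakhi 2, above a nearest level of -2.12. COX5B stood at -0.46 in Sahiwal 2, with the nearest at -0.19, and COX8A at 0.93 in Sahiwal 3, above a nearest level of 0.36.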

How the results depend on the processing

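The count of members higher in Ladakhi was 7 to 8 with each array left out and 6 to 8 under the other alternatives, where those of quantile normalization, cyclic loess and normexp are taken after subtracting the median change of all probes measured in both breeds. Without that step normexp gave 10 higher and 7 lower. The count lower was 6, and 5 to 7 with each array left out. It was 3 with the animal number as a replicate block, where ATP5F1, ATP5G3 and COX4I1 lost their call and COX7B did among the higher members. It was also 3 without Ladakhi 2 and Ladakhi 4, and 9 with normexp. Same-numbered arrays correlated between -0.072 and 0.047, so the numbers do not pair the animals. With each array left out the median difference ran from 0.087 to 0.24 over all members, from -1.29 to -1.01 in complex II, from -0.90 to -0.32 in complex III, from 0.23 to 0.51 in complex IV and from 0.13 to 0.24 in complex V. The complex III median was -0.32 without Ladakhi 2 and -0.42 without Ladakhi 2 and Ladakhi 4. With normexp it was -0.044 over all members and -0.043 in complex IV, and 0.016 in complex V. Without Sahiwal 4 and Sahiwal 6 it was 0.062 over all members and COX7B and ATP5F1 lost their call. The mean of a gene's probes takes in probes at the detection floor, which lies higher in Ladakhi. By it the medians were -0.22 over all members, -0.11 in complex II and -0.44 in complex III. By it SDHC (0.24), ATP5G3 (1.80), COX7C (-1.16), ATP5A1 (-1.03) and ATP5O (-0.76) turned direction, and UQCRC2, COX7B, ATP5G2 and ATP5F1 lost their call. COX6A1, COX7A2, ATP5D, ATP5E and ATP5L were called in the same direction under all 28 alternatives. Dim Ladakhi signal limits complexes II and III, where 6 of 13 members were not measured by their brightest probes. Of these, UQCR10 had a second probe that was measured and higher in Ladakhi (difference 1.58, adjusted p = 0.000709). The main counts and median of complex III leave that probe out.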
